A study of Rattus norvegicus with 9 samples.

Results

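SHPC clusters of rat livers that had received Thy1+ cells were compared with hepatocytes lying beside SHPC clusters in livers that had received none. The comparison rested on 6 of the series' 9 arrays, 3 per group, chosen by the sample titles without use of any measured value. SHPCs, small hepatocyte-like progenitor cells, are clusters of small hepatocytes that grow when the liver must regenerate while its own hepatocytes cannot divide. Retrorsine, a plant alkaloid that the liver turns into a DNA-damaging form, causes that block, and partial hepatectomy, the removal of part of the liver, starts the regrowth.

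Every group came from female F344 rats that were injected intraperitoneally with retrorsine at 30 mg/kg on 2 occasions, 2 weeks apart, with partial hepatectomy 4 weeks after the later injection. The transplanted group consisted of SHPC clusters from DPPIV- recipients given sorted Thy1+ cells of DPPIV+ donors through the spleen, where DPPIV is the surface enzyme encoded by Dpp4. The hepatocyte group, titled as the control, consisted of hepatocytes next to SHPCs in retrorsine and hepatectomy livers without the cells. It is thus no group of resting or untreated liver, and its cells carried the retrorsine exposure too. Both were cut by laser from hematoxylin-stained frozen sections of 7 µm. The remaining 3 arrays held SHPC clusters of livers without transplantation. They entered the pooled estimate of the spread, and their levels are given beside some genes. Because cell kind and transplantation change together between the compared groups, they cannot be told apart in any value below. DPPIV status is stated here for the transplanted group only, and whether it also differs between the compared groups was not tested. The description label of the hepatocyte arrays speaks of SHPCs with transplantation, whereas their titles and cell type label give hepatocytes, which were followed. The sources used here give neither age nor time of sampling, nor the number of animals, nor which regions shared one. The limma p-values measure the spread between arrays and would be too small where 1 animal gave several arrays of a group.

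Hepatocytes differ along the blood's path from portal to central vein: periportal cells hold most of the urea cycle and amino acid breakdown, and pericentral cells most of the drug metabolism. Fatty acids are burnt in mitochondria and peroxisomes under the receptor PPAR alpha and made from acetyl-CoA under the transcription factor SREBP-1, and the liver turns from one to the other between fasting and feeding. A dividing hepatocyte passes through DNA synthesis (S phase) and then mitosis (M phase), each with its own set of genes.

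Hepatocyte array 2 and, among the arrays not compared, SHPC array 2 stood apart from the others. On the linear scale their medians over all probe sets were 23.0 and 24.1, against 19.6 to 20.6 elsewhere. They lay at 42.2 and 54.1 along the first principal component (54.4% of the variance), with the other arrays between −22.8 and 2.30. The transplanted arrays resembled each other closely, with a mean absolute deviation from their group mean of at most 0.0993 on the log2 scale, against 0.143 to 0.231 for the hepatocyte arrays. The number of arrays limits the precision. Hepatocyte markers were at the top of the range in both groups: albumin (Alb) was at 13.67 ± 0.02 in transplanted SHPCs and 13.61 ± 0.06 in hepatocytes, and transthyretin (Ttr) at 12.63 ± 0.14 and 12.49 ± 0.02 (log2 intensity, mean ± SD, n = 3 each), so both tissues carried the hepatocyte label's defining markers. Markers that set SHPCs apart are not named in the labels.

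Of 15793 genes tested, 136 were higher in transplanted SHPCs at a limma adjusted p under 0.05, or 0.861%, and 50 were lower, or 0.317%, together 186 genes (1.18%). All 186 had 3 transplanted arrays wholly above or wholly below the 3 hepatocyte arrays, as did 12.6% (above) and 6.64% (below) of all tested genes. The median change of all tested genes was −0.00 on the log2 scale, and 49.8% of them had a higher point estimate, values that the normalization between arrays can set. Among the 186 genes, changes ran from a fall of 37.6-fold (Cyp2b1) to a rise of 17.3-fold (A1bg), with 109 more than 2-fold higher and 37 more than 2-fold lower. Before adjustment 1117 higher and 524 lower genes had a p under 0.05. Without hepatocyte array 2, 40 genes were higher (0.253%) and 31 lower (0.196%), and 67 of the 186 kept their call. All 186 kept their direction, which leaving out an array cannot turn where the groups do not overlap, so it adds no support. The count also moved without each of the other compared arrays: it was 33, 46 and 31 without transplanted array 1, 2 and 3, and 49 and 62 without hepatocyte array 1 and 3. It was 472 without SHPC array 2, and no gene among the 186 could turn its direction in any of these fits. In all, 29 of the 186 genes passed whichever of the 9 arrays was left out. The paragraphs below name these where they occur, except Acnat2, Bex4 and Fabp7, which are not discussed further.

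**Figure D1:**
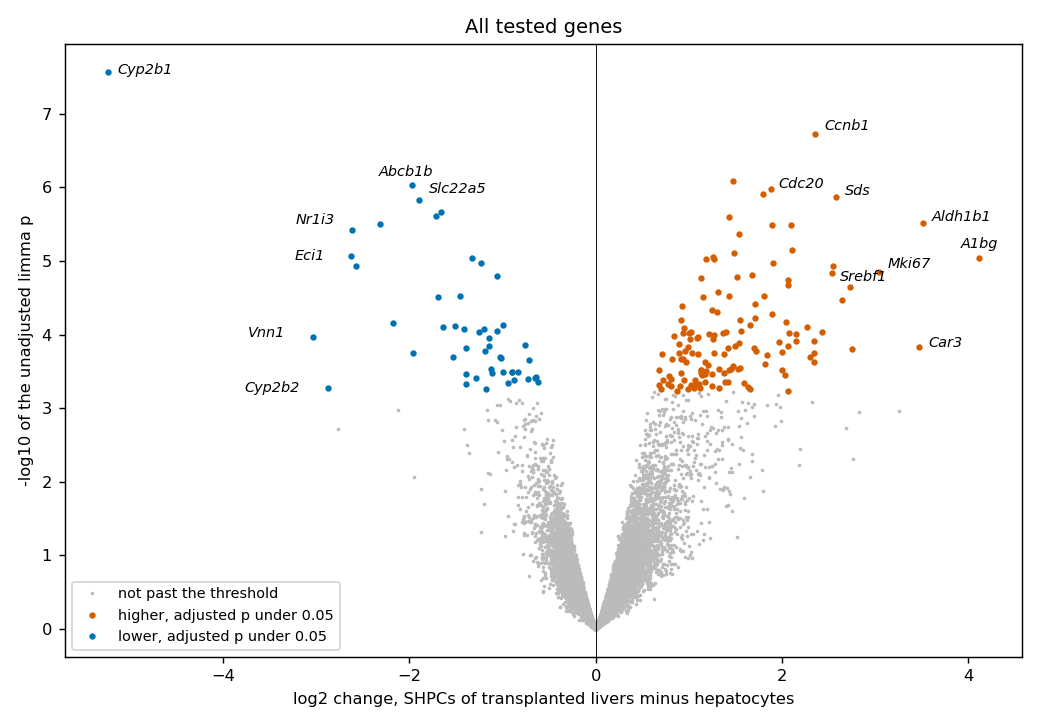
Each point is 1 of 15793 tested genes, placed by its log2 change (transplanted SHPCs minus hepatocytes, horizontal) and by −log10 of its unadjusted limma p (vertical). The 136 orange genes were higher and the 50 blue genes lower at an adjusted p under 0.05, with Cyp2b1 the farthest point to the left and A1bg the farthest to the right.

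Members of 34 gene lists on liver function, cell division, inflammation and other cell types made up 68 of the 186 genes, and 118 were in no list. Cell division genes of G2 and M phase rose in the largest number, with 18 of 32 tested members. Of 38 genes of amino acid breakdown and the urea cycle 11 rose, and of 27 genes of fatty acid oxidation 7 fell. These counts are set against the 0.861% and 0.317% of all tested genes that were called in each direction. Counts at an unadjusted p under 0.05, given for some lists below, stand against 1117 higher and 524 lower of all 15793 tested genes. No result about a list is read from them. The lists share genes, so the counts are not separate signals. In regions cut from tissue, fewer cells of a type and less RNA per cell cannot be told apart.

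**Figure D2:**
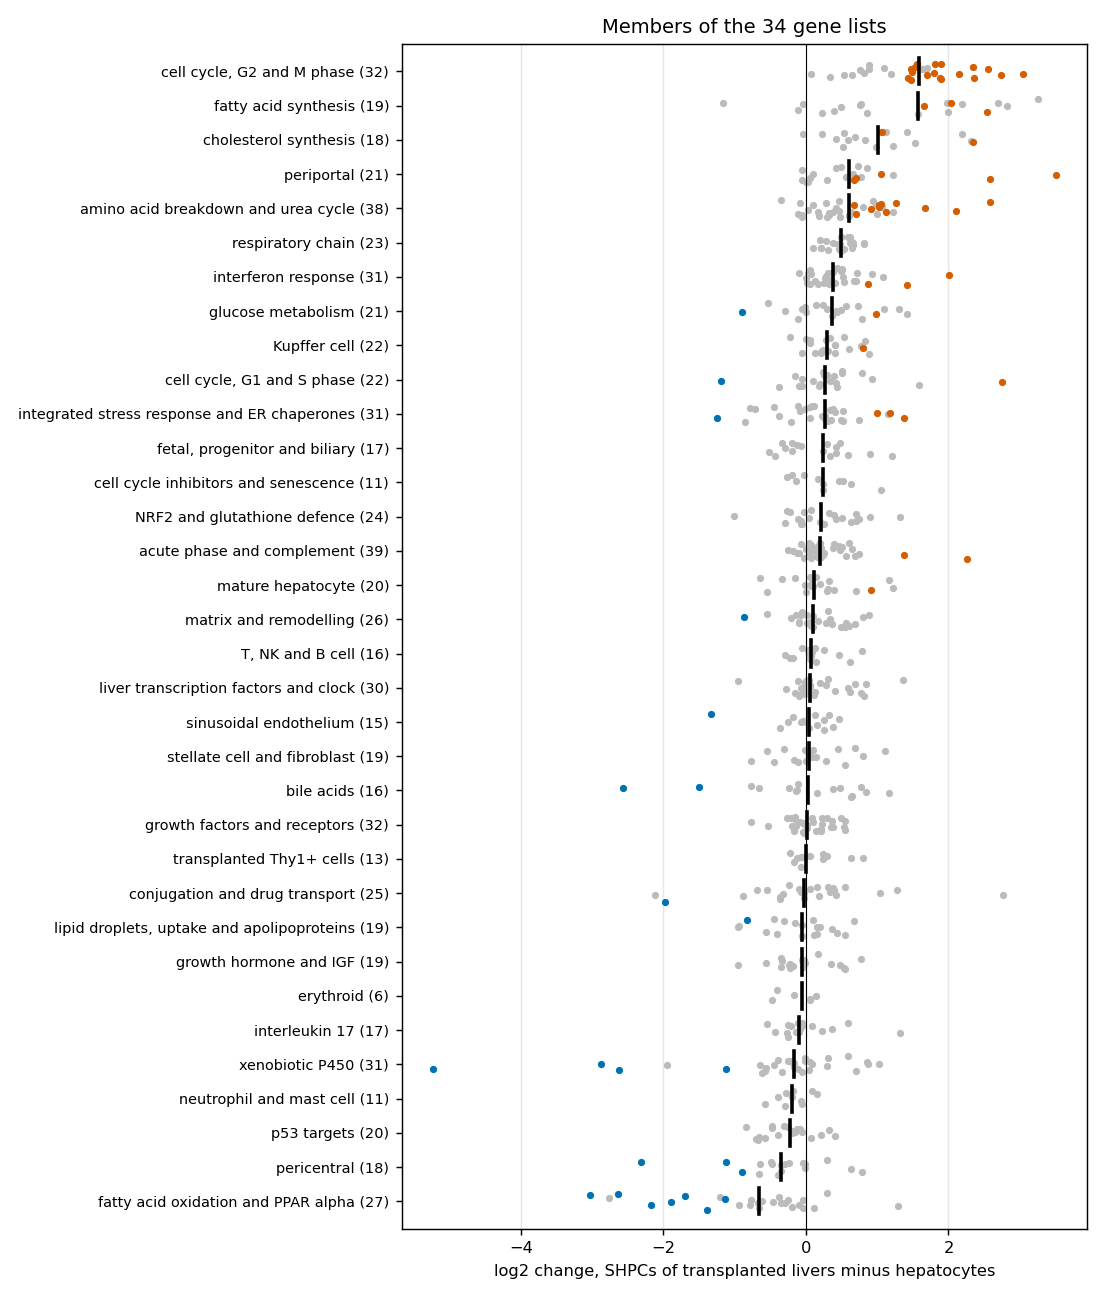
Each point is a tested gene of the list named at left (number tested in brackets), placed by its log2 change, transplanted SHPCs minus hepatocytes; orange and blue points passed at a limma adjusted p under 0.05 and grey points did not, and black bars are list medians. The medians run from 1.59 for the G2 and M phase list to −0.66 for the fatty acid oxidation list, beside −0.00 for all tested genes.

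The drug-metabolising P450 Cyp2b1 had the largest difference of all. Its log2 intensity was 5.61, 5.04 and 4.77 on the transplanted arrays and 10.46, 10.32 and 10.34 on the hepatocyte arrays. The groups lay far apart, with more than 4 log2 units between the highest transplanted and the lowest hepatocyte array. The change was −5.23 ± 0.33 (SE), or 37.6-fold lower (limma adjusted p = 0.000423). SHPCs without transplantation lay between, at 8.65, 7.87 and 9.34. Its close relative Cyp2b2 was at 7.88, 7.63 and 6.73 on the transplanted and 10.49, 9.81 and 10.57 on the hepatocyte arrays, a change of −2.88 ± 0.57 (SE) that passed narrowly (limma adjusted p = 0.0473). The RNAs of both genes are nearly alike, so probes for one may read part of the other.

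Nr1i3 encodes CAR, the nuclear receptor that switches on Cyp2b genes in response to drugs. Its level was 4.98, 5.28 and 5.14 on the transplanted and 7.97, 7.31 and 7.97 on the hepatocyte arrays. It fell 6.14-fold (−2.62 ± 0.28, SE, limma adjusted p = 0.00374). The drug efflux pump gene Abcb1b, a P-glycoprotein, went from 11.48, 11.43 and 11.19 on the hepatocyte arrays to 9.47, 9.46 and 9.23 on the transplanted arrays, 3.94-fold lower (−1.98 ± 0.18, SE, limma adjusted p = 0.00295). Its near-identical partner Abcb1a differed by −0.24 ± 0.21 (SE, limma adjusted p = 0.731), and the same caution on shared probes applies. The aryl hydrocarbon receptor gene Ahr, the sensor of dioxin-like compounds, changed by −1.13 ± 0.21 (SE, limma adjusted p = 0.0358).

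Of the 31 tested genes of the P450 list 4 fell and 0 rose, all 4 of them (Cyp2b1, Cyp2b2, Nr1i3 and Ahr) named above, and the median was −0.17. The pregnane receptor gene Nr1i2, CAR's closest relative, was at −0.06 ± 0.18 (SE), Cyp2e1, which oxidises ethanol, at −0.65 ± 0.18, and Cyp3a18 at 1.03 ± 0.55, with limma adjusted p = 0.934, 0.167 and 0.573. Nr1i2 and Cyp3a18 were chosen after their values were seen. Abcb1b was the only 1 of 25 conjugation and transport genes to pass, and the glucuronosyltransferase gene Ugt2b1, at −2.12 ± 0.46 (SE), did not (limma adjusted p = 0.0732). Of 24 genes of the NRF2 antioxidant defence 0 passed in limma, while 6 higher and 1 lower had an unadjusted p under 0.05. Gpx2, a glutathione peroxidase, and Tkt, a transketolase, had that list's smallest p at −1.0 ± 0.24 and 1.31 ± 0.31 (SE, limma adjusted p = 0.10 and 0.10), and its median of 0.21 turned to −0.10 without hepatocyte array 2. The calls of Cyp2b1, Nr1i3 and Abcb1b held when any one of the 9 arrays was left out (limma adjusted p at most 0.0364). Leaving out any one of the 6 compared arrays or SHPC array 1 ended the call of Cyp2b2 (limma adjusted p up to 0.225). Without any one of the 6 compared arrays, the call of Ahr ended (limma adjusted p up to 0.189). The P450 count of 4 fell to 2 when any one of the 6 compared arrays was left out, and the median without hepatocyte array 2 was −0.23. Without SHPC array 2, Gpx2, Tkt and Ugt2b1 passed (limma adjusted p = 0.0387, 0.00980 and 0.00266), as did Tkt without SHPC array 1 (0.0356) and Ugt2b1 without SHPC array 3 (0.0244).

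The 250 bases before the starts of Cyp2b1 and Cyp2b2, which lie close together on chromosome 1, are shown. These genes were picked as named P450 list members past the threshold whose window held the letters searched. The sequences are RefSeq's, assembly GRCr8, given 5′ to 3′ on the gene's strand (the plus strand for both), from chr1:90645869-90646118 and chr1:90722031-90722280. Capitals mark GCGTG, the core of the site that the aryl hydrocarbon receptor binds, searched on both strands.
Cyp2b1: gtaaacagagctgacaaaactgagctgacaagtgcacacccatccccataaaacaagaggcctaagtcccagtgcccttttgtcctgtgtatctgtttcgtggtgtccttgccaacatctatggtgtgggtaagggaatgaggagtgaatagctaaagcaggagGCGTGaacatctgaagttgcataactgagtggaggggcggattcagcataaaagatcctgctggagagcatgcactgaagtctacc
Cyp2b2: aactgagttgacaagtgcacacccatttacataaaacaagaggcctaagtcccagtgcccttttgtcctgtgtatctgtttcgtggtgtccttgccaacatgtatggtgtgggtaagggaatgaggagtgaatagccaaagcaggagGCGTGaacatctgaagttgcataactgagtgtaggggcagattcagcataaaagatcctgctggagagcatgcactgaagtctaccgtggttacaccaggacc
Holding the core was a condition of the choice, and each window held it once, 86 and 103 bases before the start. The windows were 96.6% identical over 233 aligned bases. GCGTG was held by 5 of the 27 P450 list members with a RefSeq promoter (18.5%). The share was 27.2% of all 27457 promoters of this length and 38.7% of the promoters of tested genes. A match is a description of the letters only, and the region where CAR is known to act on these genes lies farther upstream than the window reaches.

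Of 27 tested genes of fatty acid oxidation 7 were lower in transplanted SHPCs and 0 were higher, with a median of −0.66, or 1.59-fold lower, and 24 of 27 point estimates below 0. They include genes of carnitine uptake, of enzymes inside the mitochondrion and of proteins elsewhere in the cell. Slc22a5, the carnitine transporter of the plasma membrane, was at 6.33, 6.41 and 6.03 on the transplanted and 8.31, 7.93 and 8.20 on the hepatocyte arrays, 3.71-fold lower (−1.89 ± 0.19, SE, limma adjusted p = 0.00295). Cpt1a, which links fatty acids to carnitine for entry into mitochondria, was at 7.77, 7.99 and 8.15 against 9.85, 9.32 and 9.81, 3.23-fold lower (−1.69 ± 0.23, SE, limma adjusted p = 0.0112). SHPCs without transplantation, at a mean of 9.72, were near the hepatocyte mean of 9.66 for this gene.

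Eci1, a mitochondrial isomerase needed for unsaturated fatty acids, had levels of 7.80, 7.72 and 7.38 on the transplanted and 10.29, 9.86 and 10.65 on the hepatocyte arrays. That was 6.20-fold lower (−2.63 ± 0.31, SE, limma adjusted p = 0.00585), with no overlap between the groups. The acyl-CoA thioesterase gene Acot2 was at 5.93, 6.03 and 5.85 against 8.30, 7.52 and 8.51, a change of −2.17 ± 0.33 (SE, limma adjusted p = 0.0200). Vnn1, a pantetheinase and a known PPAR alpha target, was at 4.15, 4.43 and 4.08 against 7.71, 6.20 and 7.84, 8.17-fold lower (−3.03 ± 0.49, SE, limma adjusted p = 0.0214). Hepatocyte array 2 lay more than 1 log2 unit below the other hepatocyte arrays for this gene. Decr1, a further enzyme for unsaturated fatty acids, and Cyp4a1, which oxidises fatty acids at their far end, changed by −1.14 ± 0.18 and −1.39 ± 0.26 (SE, limma adjusted p = 0.0216 and 0.0368) and were chosen after their values were seen. Acot2 and Cyp4a1 have close relatives whose RNA their probes may also read.

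Ech1, an isomerase of mitochondria and peroxisomes in the same pathway that was in no list, was 3.91-fold lower, at 7.97, 8.09 and 7.87 on the transplanted and 10.13, 9.27 and 10.43 on the hepatocyte arrays (−1.97 ± 0.34, SE, limma adjusted p = 0.0264). The receptor gene Ppara itself was at 0.11 ± 0.17 (SE, limma adjusted p = 0.855), and its coactivator gene Ppargc1a, also chosen after its value was seen, had a higher point estimate of 1.29 ± 0.31 that did not pass (limma adjusted p = 0.106). Nceh1, which splits cholesterol esters, fell to 5.39, 5.35 and 5.35 from 6.85, 6.95 and 7.44, a change of −1.72 ± 0.18 (SE, limma adjusted p = 0.00346). Of the 19 genes of lipid droplets and lipoproteins 1 fell, the droplet coat gene Plin5, at −0.83 ± 0.15 (SE, limma adjusted p = 0.0368). The calls of Slc22a5, Eci1 and Nceh1 held when any one of the 9 arrays was left out (limma adjusted p at most 0.0480). Omission of transplanted array 1, 2 or 3 or hepatocyte array 1 or 3 ended the calls of Cpt1a, Acot2, Decr1, Vnn1 and Ech1 (limma adjusted p up to 0.0788, 0.109, 0.128, 0.118 and 0.142). When transplanted array 1, 2 or 3, hepatocyte array 1 or 3 or SHPC array 1 was left out, the call of Cyp4a1 ended (limma adjusted p up to 0.189). The call of Plin5 ended without any one of the 6 compared arrays or SHPC array 3 (limma adjusted p up to 0.189). The list's count of 7 was 2 without any one of the transplanted arrays or of hepatocyte arrays 1 and 3, and 7 without hepatocyte array 2, where the median was −0.89. AGGNCA repeated in the same direction with 1 base between the copies, a strict form of the site of PPAR alpha searched on both strands, was found in 0 of 22 members' 250-base windows and in 0.353% of all promoters.

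**Figure D3:**
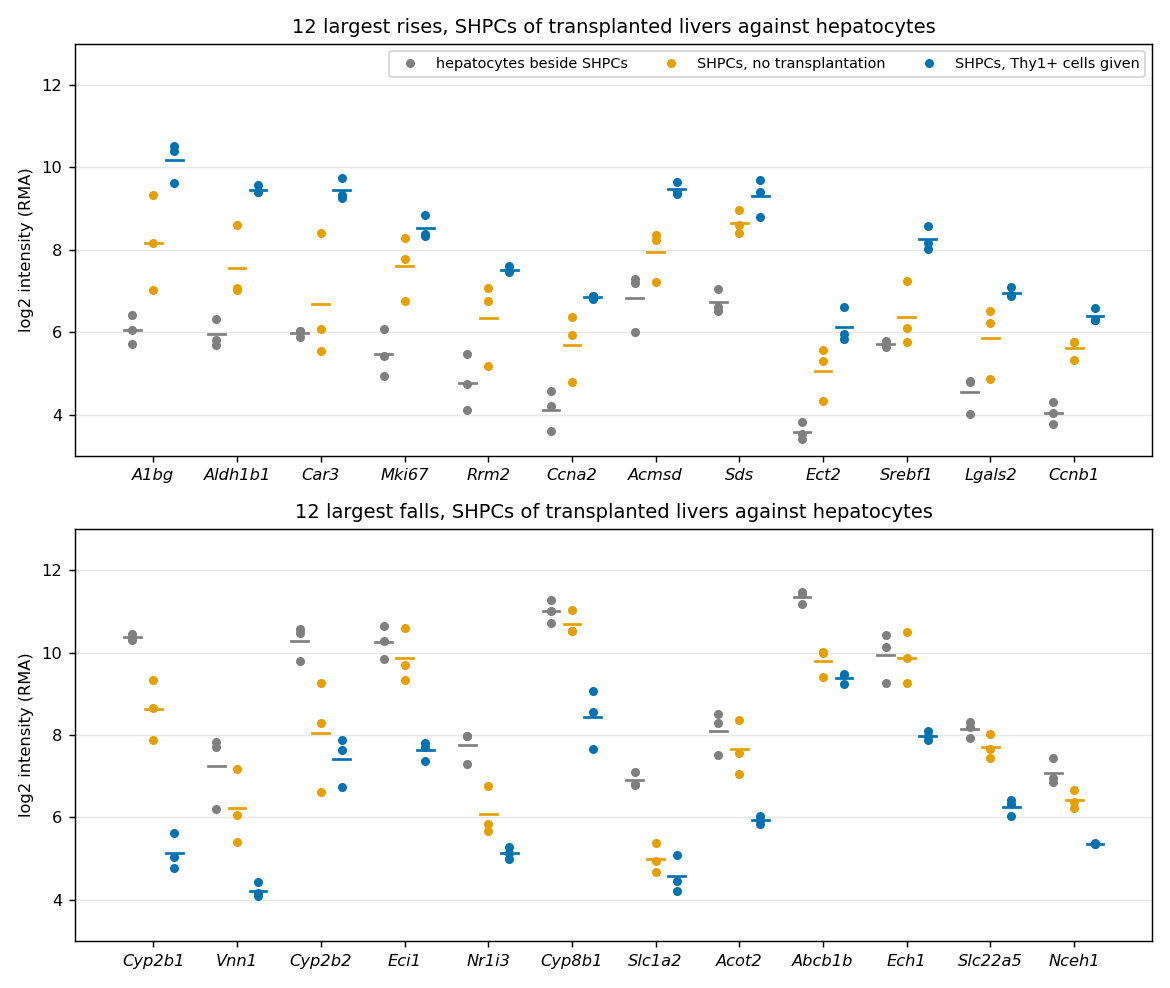
Log2 RMA intensity (vertical) on each of the 9 arrays for the 12 largest rises (top) and the 12 largest falls (bottom) among genes past the threshold and above background in both groups, with points for arrays and bars for group means (n = 3). In each gene the blue points (transplanted SHPCs) lie wholly above or wholly below the grey points (hepatocytes), and the orange mean (SHPCs without transplantation) lies between the other group means.

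Few lipid synthesis genes passed singly, and none fell. Of 19 fatty acid synthesis genes 3 rose and 0 fell, with a median of 1.57, or 2.98-fold higher, and 16 point estimates above 0. Srebf1, which encodes SREBP-1, was at 8.57, 8.16 and 8.02 on the transplanted and 5.77, 5.73 and 5.63 on the hepatocyte arrays. It rose 5.81-fold (2.54 ± 0.32, SE, limma adjusted p = 0.00748). Acacb, the acetyl-CoA carboxylase whose product also inhibits Cpt1a's enzyme, was at 7.61, 7.42 and 7.44 against 6.03, 5.55 and 5.94, 3.15-fold higher (1.65 ± 0.25, SE, limma adjusted p = 0.0205). Pnpla3, a lipid droplet enzyme and SREBP-1 target, was higher by 2.03 ± 0.38 (SE, limma adjusted p = 0.0368).

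Other members had point estimates as large and did not pass. The elongase gene Elovl6 was at 8.54 ± 0.37 in transplanted SHPCs and 5.29 ± 1.38 in hepatocytes (mean ± SD, n = 3 each), and its difference of 3.26 ± 0.71 (SE, limma adjusted p = 0.0735) did not pass. Thrsp, a lipogenic protein of the liver, differed by 2.82 ± 0.62 (SE, limma adjusted p = 0.0746), and Acly, which makes cytosolic acetyl-CoA, by 1.99 ± 0.46 (limma adjusted p = 0.0857). These 3 were chosen after their values were seen. On hepatocyte array 2 the list's median lay at −0.42 relative to the mean of the 3 hepatocyte arrays, against 0.26 and 0.13 on arrays 1 and 3. The SHPC arrays 1, 2 and 3, which also enter the pooled spread, lay at 0.73, −0.66 and −0.02.

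In cholesterol synthesis 2 of 18 members were higher and 0 lower, with 17 point estimates above 0 and a median of 1.02, or 2.02-fold. Insig1, which holds back SREBP processing and is itself an SREBP target, was at 10.05, 9.59 and 9.32 on the transplanted and 7.46, 6.97 and 7.51 on the hepatocyte arrays, 5.07-fold higher (2.34 ± 0.40, SE, limma adjusted p = 0.0264). Hsd17b7, an enzyme of the later sterol steps, rose by 1.06 ± 0.20 (SE, limma adjusted p = 0.0413). The squalene epoxidase gene Sqle, chosen after its value was seen, was at 1.05 ± 0.27 (SE, limma adjusted p = 0.126). Leaving out transplanted array 1 ended the call of Srebf1 (limma adjusted p = 0.0546). Without any one of the 6 compared arrays, the calls of Acacb and Insig1 ended (limma adjusted p up to 0.111 and 0.150). Omission of any one of the 6 compared arrays or SHPC array 3 ended the calls of Pnpla3 and Hsd17b7 (limma adjusted p up to 0.166 and 0.198). The fatty acid synthesis count of 3 became 0 to 1 without any one of the 6 compared arrays, 8 and 10 without SHPC array 1 and 2, and 2 without SHPC array 3. The cholesterol count of 2 became 0 without any of the 6, and 5, 10 and 1 without SHPC array 1, 2 and 3. Without hepatocyte array 2, 1 and 0 genes passed in these lists and the medians were 1.32 and 0.89. The letters TCACNCCAC, a form of the sterol regulatory element, were in 0 of 30 windows of both lists and in 0.976% of all promoters.

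Of 16 bile acid genes 2 fell and 0 rose, around a median of 0.02. Cyp8b1, the sterol hydroxylase that sets the share of cholic acid, was at 9.07, 8.55 and 7.67 on the transplanted and 10.73, 11.01 and 11.28 on the hepatocyte arrays, 5.95-fold lower (−2.57 ± 0.32, SE, limma adjusted p = 0.00644). Amacr, a racemase that bile acid side chains and branched fatty acids both need, changed by −1.51 ± 0.23 (SE, limma adjusted p = 0.0205). Cyp7a1, the rate-limiting enzyme of the pathway, was at 0.64 ± 0.51 (SE, limma adjusted p = 0.709), and was chosen after its value was seen. The call of Cyp8b1 held when any one of the 9 arrays was left out (limma adjusted p at most 0.0409). When transplanted array 1, 2 or 3 or hepatocyte array 1 or 3 was left out, the call of Amacr ended (limma adjusted p up to 0.117).

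Genes of cell division gave the largest count of rises. Of 32 tested G2 and M phase genes 18 rose and 0 fell, all 32 point estimates were above 0, and the median was 1.59, or 3.01-fold higher. For 29 of the 32 the transplanted arrays lay wholly above the hepatocyte arrays, against 12.6% of all tested genes. Ccnb1, the cyclin whose partner kinase drives entry into mitosis, was at 6.29, 6.29 and 6.58 on the transplanted arrays and 3.77, 4.03 and 4.30 on the hepatocyte arrays. It rose 5.11-fold (2.35 ± 0.18, SE), with the smallest p of any rise (limma adjusted p = 0.00149). Ccna2, cyclin A2, was at 6.88, 6.81 and 6.88 against 3.59, 4.21 and 4.56, 6.66-fold higher (2.73 ± 0.37, SE, limma adjusted p = 0.00939).

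The proliferation marker Mki67 had levels of 8.38, 8.34 and 8.84 on the transplanted and 5.42, 4.94 and 6.08 on the hepatocyte arrays. It showed the largest rise of the list, 8.22-fold (3.04 ± 0.38, SE, limma adjusted p = 0.00741), and the lowest of its transplanted arrays exceeded the highest hepatocyte array by more than 2 log2 units. Ect2, which places the cleavage furrow between daughter cells, was at 5.95, 5.83 and 6.61 against 3.41, 3.81 and 3.52, 5.86-fold higher (2.55 ± 0.32, SE, limma adjusted p = 0.00644). Cdc20, which triggers the separation of chromosomes, changed by 1.89 ± 0.18 (SE), the spindle protein gene Dlgap5 by 1.80 ± 0.17 and the kinetochore gene Cenpf by 1.48 ± 0.14, each with a limma adjusted p = 0.00295. SHPCs without transplantation lay between the groups for all of these, with means of 5.62 for Ccnb1, 5.70 for Ccna2 and 7.61 for Mki67.

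In the list of G1 and S phase 1 of 22 members rose and 1 fell, with a median of 0.27. The riser was Rrm2, the ribonucleotide reductase subunit made for DNA synthesis, at 7.61, 7.45 and 7.50 on the transplanted and 4.74, 4.10 and 5.46 on the hepatocyte arrays, 6.74-fold higher (2.75 ± 0.46, SE, limma adjusted p = 0.0251). The faller was Ccnd1, the cyclin of early G1, at 7.44, 7.61 and 6.92 against 8.82, 8.33 and 8.38, 2.28-fold lower (−1.19 ± 0.20, SE, limma adjusted p = 0.0264). The replication licensing gene Mcm2 was at 0.40 ± 0.16 (SE, limma adjusted p = 0.413), chosen after its value was seen. Whether this list differs from that of G2 and M phase was not tested.

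The lists of brakes on the cycle had no member past the threshold. Of 20 targets of p53, the protein that stops division after DNA damage, 0 passed in limma, and 8, all lower, had an unadjusted p under 0.05, with 16 point estimates below 0 and a median of −0.23. Cdkn1a, the p21 inhibitor, was at 7.71, 7.54 and 7.66 on the transplanted and 8.23, 8.12 and 7.99 on the hepatocyte arrays, without overlap, and its change of −0.48 ± 0.13 (SE) did not pass (limma adjusted p = 0.179). The p53 targets with the smallest p were Phlda3 at −0.70 ± 0.16 (SE, limma adjusted p = 0.0876) and Plk3 at −0.66 ± 0.17 (limma adjusted p = 0.126), and 7 of the 20 had transplanted arrays wholly below, against 6.64% of all tested genes. Of 11 other inhibitors 0 passed in limma (3 higher and 0 lower at an unadjusted p under 0.05), with the kinase inhibitor gene Cdkn2c at 1.05 ± 0.30 (SE, limma adjusted p = 0.182). The calls of Ccnb1, Ect2, Cdc20, Dlgap5 and Cenpf held when any one of the 9 arrays was left out (limma adjusted p at most 0.0480). So did those of the further G2 and M phase members Kif20a, Ndc80 and Prc1 (limma adjusted p at most 0.0480). The call of Mki67 ended without transplanted array 3 (limma adjusted p = 0.0568). Leaving out transplanted array 1, 2 or 3 or hepatocyte array 1 ended the call of Ccna2 (limma adjusted p up to 0.0635). Without transplanted array 1, 2 or 3 or hepatocyte array 1 or 2, the call of Rrm2 ended (limma adjusted p up to 0.131). Omission of any one of the 6 compared arrays ended the call of Ccnd1 (limma adjusted p up to 0.117). Of the 18 G2 and M phase calls, the count was 8 to 14 without any one of the 6 compared arrays, 11 without hepatocyte array 2 (median 1.53), and 25 without SHPC array 2, and the median stayed between 1.07 and 1.70 in all alternatives. Phlda3 and Cdkn2c passed without SHPC array 2 (limma adjusted p = 0.0322 and 0.00153).

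CCAAT boxes are a known shared feature of mitotic genes, and promoter sequences of 2 of these risers are shown. The 2 had the smallest p among named list members past the threshold whose window held CCAAT or TTTGAA. Holding such letters was thus a condition of the choice. The sequences are the 250 bases before the starts of Ccnb1 (chr2:33655226-33655475, minus strand) and Cenpf (chr13:103760887-103761136, minus strand), RefSeq, GRCr8, 5′ to 3′ on the gene's strand. Capitals mark CCAAT, or ATTGG where it lies on the opposite strand.
Ccnb1: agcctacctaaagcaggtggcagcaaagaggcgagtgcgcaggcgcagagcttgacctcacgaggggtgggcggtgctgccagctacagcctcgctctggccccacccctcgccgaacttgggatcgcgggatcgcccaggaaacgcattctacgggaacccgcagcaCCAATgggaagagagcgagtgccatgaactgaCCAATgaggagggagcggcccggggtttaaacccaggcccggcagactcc
Cenpf: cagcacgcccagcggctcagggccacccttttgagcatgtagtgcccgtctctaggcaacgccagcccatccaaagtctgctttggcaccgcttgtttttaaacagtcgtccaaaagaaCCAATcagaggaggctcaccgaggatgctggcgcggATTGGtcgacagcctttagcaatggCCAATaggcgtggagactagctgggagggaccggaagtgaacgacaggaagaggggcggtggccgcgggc
Ccnb1 held 2 boxes, 82 and 50 bases before the start, and Cenpf 3, at 131, 95 and 70 bases. A CCAAT box was present in 21 of 28 G2 and M phase members with a promoter in the table (75%). The share was 34.3% of all 27457 promoters and 35.3% of those of tested genes. The letters TTTGAA, a form of the cell cycle homology region on either strand, were in 11 of 28 (39.3%), against 16% of all and 12% of tested genes. The share says nothing of which factor was bound in these cells.

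**Figure D4:**
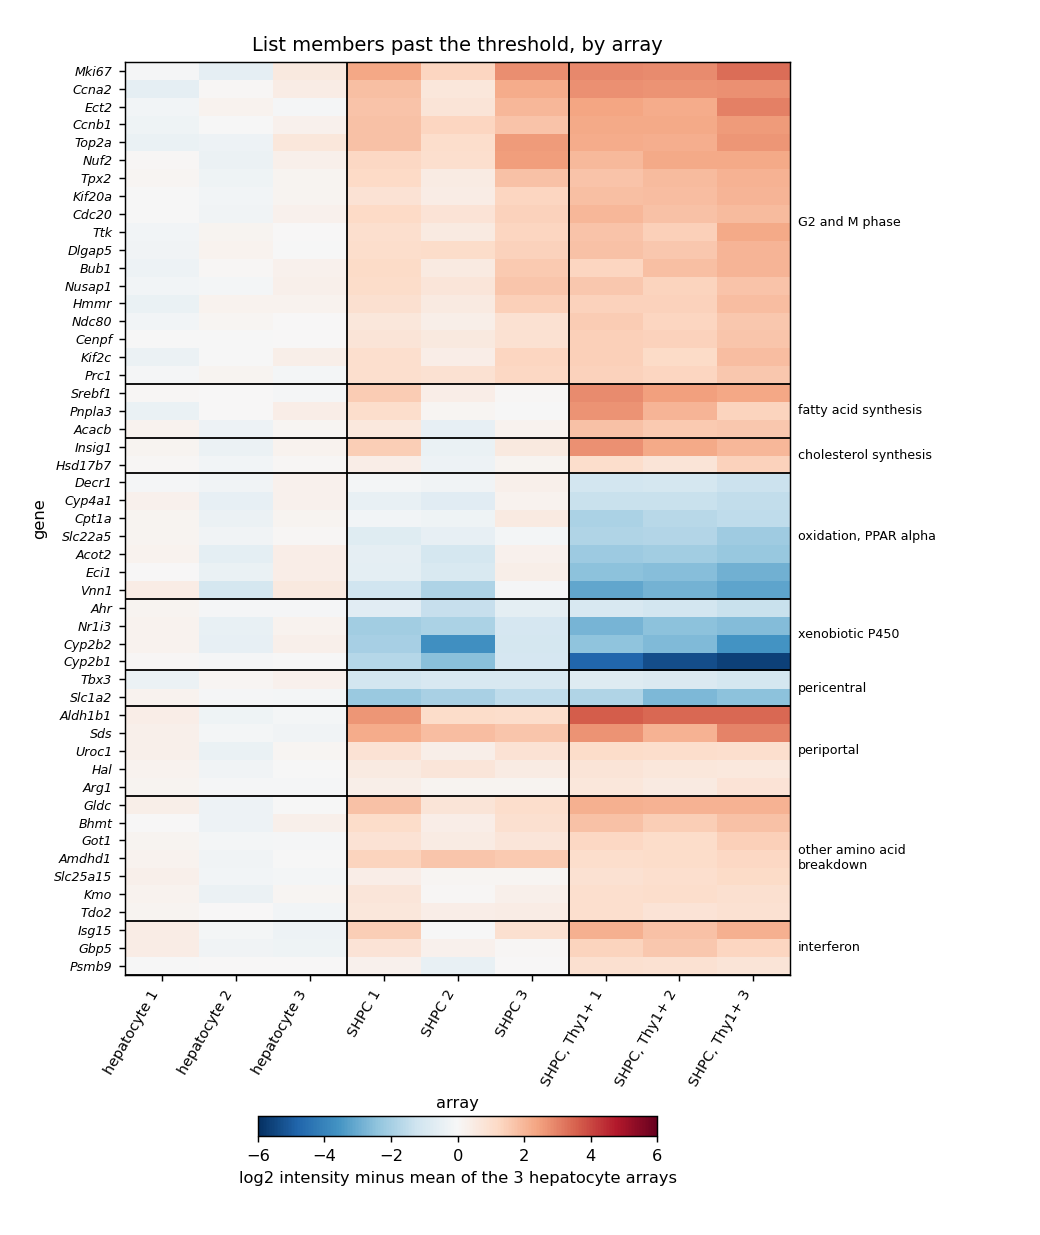
Colour gives the log2 intensity of each array minus the mean of the 3 hepatocyte arrays for list members past the threshold in the main functional groups (rows), with arrays in columns by group. Rows of the G2 and M phase, synthesis and amino acid groups are red on all 3 transplanted arrays, rows of the oxidation, P450 and pericentral groups are blue, and the SHPC arrays without transplantation are mostly paler than the transplanted ones.

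Genes that mark zones of the lobule had counts in opposite directions. Of 21 periportal genes 5 rose and 0 fell, with a median of 0.61, and of 18 pericentral genes 3 fell and 0 rose, with a median of −0.34. Aldh1b1, a mitochondrial aldehyde dehydrogenase, was at 9.57, 9.39 and 9.41 on the transplanted and 6.33, 5.70 and 5.81 on the hepatocyte arrays. Its rise of 11.4-fold (3.51 ± 0.37, SE, limma adjusted p = 0.00346) was the second largest after A1bg. Sds, the serine dehydratase that feeds serine into glucose synthesis, was at 9.42, 8.80 and 9.71 against 7.05, 6.61 and 6.52, 5.98-fold higher (2.58 ± 0.25, SE, limma adjusted p = 0.00295).

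In the pericentral list, Slc1a2, a glutamate transporter of the cells around the central vein, was at 5.09, 4.22 and 4.44 on the transplanted and 7.10, 6.82 and 6.78 on the hepatocyte arrays, 4.97-fold lower (−2.31 ± 0.25, SE, limma adjusted p = 0.00346). SHPCs without transplantation had a mean of 4.99. Tbx3, a transcriptional repressor of that zone, changed by −0.90 ± 0.17 (SE, limma adjusted p = 0.0368), and Ahr, named above, was the remaining member that fell. Axin2, a feedback target of Wnt signalling that was chosen after its value was seen, was at −0.66 ± 0.15 (SE, limma adjusted p = 0.0863). Rspo3, an enhancer of Wnt signalling that central vein endothelium secretes, changed by −1.33 ± 0.16 (SE, limma adjusted p = 0.00585), at 4.51, 4.72 and 4.71 on the transplanted and 5.88, 5.78 and 6.27 on the hepatocyte arrays. The labels do not give where in the lobule the regions were cut, and its part in these values was not tested.

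Amino acid breakdown showed 11 of 38 members higher and 0 lower, with a median of 0.61 and 33 point estimates above 0. Arg1, Sds, Hal and Uroc1 are counted both here and among the periportal rises, so the 2 lists are not separate results. Beside Sds, Gldc, the glycine decarboxylase, was at 8.67, 8.61 and 8.59 on the transplanted and 6.85, 6.22 and 6.48 on the hepatocyte arrays, 4.31-fold higher (2.11 ± 0.25, SE, limma adjusted p = 0.00585). Bhmt, which remakes methionine from homocysteine, was at 12.62, 12.35 and 12.60 against 10.86, 10.54 and 11.15 (1.67 ± 0.21, SE, limma adjusted p = 0.00754). Got1, the cytosolic aspartate aminotransferase, changed by 1.27 ± 0.15 (SE, limma adjusted p = 0.00585).

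The histidine pathway had 3 consecutive enzymes higher: Hal by 0.71 ± 0.14, Uroc1 by 1.05 ± 0.21 and Amdhd1 by 1.13 ± 0.15 (SE, limma adjusted p = 0.0477, 0.0473 and 0.00767). In tryptophan breakdown, Tdo2, the first enzyme, rose by 0.91 ± 0.14 (SE, limma adjusted p = 0.0189), and Kmo, a later hydroxylase, by 1.02 ± 0.20 (limma adjusted p = 0.0444). Acmsd, which turns the same pathway away from NAD synthesis and was in no list, was at 9.66, 9.37 and 9.41 against 7.20, 6.01 and 7.28, 6.27-fold higher (2.65 ± 0.37, SE, limma adjusted p = 0.0119). In the urea cycle, Arg1, which releases urea, rose by 0.68 ± 0.13 (SE) and the ornithine carrier gene Slc25a15 by 1.03 ± 0.16 (limma adjusted p = 0.0444 and 0.0206), while Cps1, the entry enzyme, was at 0.42 ± 0.15 (limma adjusted p = 0.330). Hal, Amdhd1, Kmo, Slc25a15 and Cps1 were chosen after their values were seen.

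Glucose genes held 1 rise and 1 fall among 21. Pfkfb1, the enzyme that sets the switch between glucose breakdown and synthesis, changed by 0.99 ± 0.20 (SE) and Gys2, the liver's glycogen synthase, by −0.90 ± 0.17 (limma adjusted p = 0.0476 and 0.0368). The calls of Aldh1b1, Sds, Slc1a2, Rspo3, Gldc and Got1 held when any one of the 9 arrays was left out (limma adjusted p at most 0.0480). When transplanted array 1 or 3 was left out, the calls of Bhmt and Amdhd1 ended (limma adjusted p up to 0.0588 and 0.0601). The call of Acmsd ended without transplanted array 1, 2 or 3 (limma adjusted p up to 0.0807). Leaving out transplanted array 1, 2 or 3 or hepatocyte array 2 or 3 ended the calls of Tdo2 and Slc25a15 (limma adjusted p up to 0.110 and 0.118). Without transplanted array 1, 2 or 3, hepatocyte array 2 or 3 or SHPC array 1 or 3, the call of Tbx3 ended (limma adjusted p up to 0.191). Omission of transplanted array 1, 2 or 3 or hepatocyte array 1 or 3 ended the call of Gys2 (limma adjusted p up to 0.173). When transplanted array 1, 2 or 3, hepatocyte array 1 or 2 or SHPC array 3 was left out, the call of Pfkfb1 ended (limma adjusted p up to 0.227). The call of Kmo ended without any one of the 6 compared arrays or SHPC array 3 (limma adjusted p up to 0.200). Leaving out any one of the 6 compared arrays or SHPC array 1 or 3 ended the calls of Arg1, Hal and Uroc1 (limma adjusted p up to 0.222, 0.239 and 0.221). The periportal count of 5 was 2 without any one compared array or SHPC array 1 or 3, and the pericentral count of 3 was 1 to 2 without any one compared array. The amino acid count of 11 was 3 to 7 without a compared array, 7 without SHPC array 3 and 16 without SHPC array 2. Without hepatocyte array 2 the periportal, pericentral and amino acid medians were 0.50, −0.41 and 0.43, with 2, 1 and 5 calls.

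Few identity markers of the hepatocyte lineage passed. Of 20 mature hepatocyte genes 1 rose, Tdo2, with a median of 0.11 that cyclic loess turned to −0.09. Alb changed by 0.06 ± 0.11 (SE, limma adjusted p = 0.880), or −0.13 after cyclic loess, and its level was near the top of the range. The fetal liver protein gene Afp was at 6.0, 5.90 and 5.57 on the transplanted and 5.20, 5.22 and 5.29 on the hepatocyte arrays (0.59 ± 0.26, SE, limma adjusted p = 0.465). Of 17 fetal, progenitor and bile duct genes 0 passed in limma, against 7 higher and 0 lower at an unadjusted p under 0.05. The smallest p belonged to Prom1, a stem cell surface protein, at 1.21 ± 0.25 (SE, limma adjusted p = 0.0535), and to Epcam, an adhesion protein of bile ducts, at 0.89 ± 0.28 (limma adjusted p = 0.257). Of 30 liver transcription factors and clock genes 0 passed in limma (7 higher and 1 lower at an unadjusted p under 0.05), with Hnf4a, the master regulator of hepatocytes, at 0.01 ± 0.19 (SE, limma adjusted p = 0.987), chosen after its value was seen. Without transplanted array 1, 2 or 3 or hepatocyte array 2 or 3, the call of Tdo2 ended (limma adjusted p up to 0.110). Prom1 passed without SHPC array 2 or hepatocyte array 3 (limma adjusted p = 0.0370 and 0.0292).

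Among immune genes, 3 of 31 interferon response genes rose and 0 fell, with a median of 0.38 and 30 point estimates above 0. Isg15, a ubiquitin-like protein attached to others during antiviral responses, was at 6.39, 5.98 and 6.36 on the transplanted and 4.68, 4.10 and 3.94 on the hepatocyte arrays, 4.01-fold higher (2.0 ± 0.34, SE, limma adjusted p = 0.0264). The guanylate-binding protein gene Gbp5 rose by 1.42 ± 0.24 (SE) and the immunoproteasome gene Psmb9 by 0.87 ± 0.17 (limma adjusted p = 0.0250 and 0.0490). Markers of Kupffer cells, the liver's macrophages, are given beside them: 1 of 22 rose, Marco, a scavenger receptor, by 0.80 ± 0.16 (SE, limma adjusted p = 0.0456), and 19 point estimates were above 0. Their summed intensity was 6561 to 7194 on the transplanted and 4461 to 6501 on the hepatocyte arrays. Of the 3 defining markers only Marco passed, while Clec4f and Cd163 differed by 0.06 ± 0.20 and 0.25 ± 0.25 (SE, limma adjusted p = 0.944 and 0.775). The part of Kupffer cells in the interferon result was not tested. Without hepatocyte array 2 the medians were 0.37 for the interferon and 0.08 for the Kupffer list, with 0 calls in either. Omission of any one of the 6 compared arrays ended the call of Isg15 (limma adjusted p up to 0.148). When transplanted array 1, 2 or 3 or hepatocyte array 2 or 3 was left out, the call of Gbp5 ended (limma adjusted p up to 0.128). The call of Psmb9 ended without any one of the 6 compared arrays or SHPC array 3 (limma adjusted p up to 0.237). Leaving out any one of the 6 compared arrays or SHPC array 1 or 3 ended the call of Marco (limma adjusted p up to 0.203). The interferon count of 3 became 0 or 1 without any of the 6 compared arrays and 6 without SHPC array 2. GAAA repeated in the same direction with 2 bases between the copies, a form of the interferon-stimulated response element searched on both strands, was in 18 of 26 members' 250-base windows (69.2%) and in 3.29% of all. That share is over members called or not. Of the 2 called members with a promoter 1 held the letters, Gbp5.

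Of 39 acute phase and complement genes 2 rose: A2m, a protease inhibitor that rat liver makes in quantity in the fetus and in inflammation, and C6, a part of the membrane attack complex. A2m was at 6.20, 6.92 and 7.43 on the transplanted and 3.96, 5.28 and 4.50 on the hepatocyte arrays, 4.81-fold higher (2.27 ± 0.35, SE, limma adjusted p = 0.0206), and SHPCs without transplantation, at 6.61, were near the transplanted mean of 6.85. C6 changed by 1.38 ± 0.24 (SE, limma adjusted p = 0.0264). The list's median of 0.19 turned to −0.01 after cyclic loess. In the stress response list of 31 genes 3 rose and 1 fell: Psat1, of serine synthesis, by 1.37 ± 0.22, the stress regulator gene Nupr1 by 1.18 ± 0.22 and the chaperone gene Pdia6 by 0.99 ± 0.17, against Atf5, a stress transcription factor, by −1.25 ± 0.20 (SE, limma adjusted p = 0.0206, 0.0368, 0.0248 and 0.0206).

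Of 17 interleukin 17 genes 0 passed in limma (1 higher and 2 lower at an unadjusted p under 0.05), with a median of −0.10. Il17rb, a receptor subunit for interleukins 17B and 25 which the study itself followed up, so that it is no independent evidence, was at 6.86, 6.18 and 6.19 on the transplanted and 5.46, 4.70 and 5.11 on the hepatocyte arrays. Every transplanted array lay above every hepatocyte array, but the change of 1.32 ± 0.35 (SE) did not pass (limma adjusted p = 0.145), and its ligand gene Il17b was at −0.44 ± 0.16 (limma adjusted p = 0.370). Growth factors and their receptors (32 genes) and growth hormone and insulin-like growth factor genes (19) had 0 members past the threshold in limma and medians of 0.01 and −0.05. Of the former 3 higher and 2 lower, and of the latter 1 higher and 1 lower, had an unadjusted p under 0.05. Hgf, the hepatocyte growth factor, was at −0.77 ± 0.19 (SE, limma adjusted p = 0.117). All 23 respiratory chain genes had point estimates above 0 with a median of 0.49, but 0 passed in limma, 0 had an unadjusted p under 0.05, and the median was 0.22 without hepatocyte array 2, an array whose list median was −0.52 against the mean of the 3 hepatocyte arrays. Without transplanted array 2 or 3 or hepatocyte array 1 or 3, the call of A2m ended (limma adjusted p up to 0.104). Omission of any one of the 6 compared arrays ended the calls of C6, Psat1 and Pdia6 (limma adjusted p up to 0.140, 0.118 and 0.140). When any one of the 6 compared arrays or SHPC array 3 was left out, the call of Nupr1 ended (limma adjusted p up to 0.196). The call of Atf5 ended without transplanted array 1, 2 or 3 or hepatocyte array 2 or 3 (limma adjusted p up to 0.118). Without SHPC array 2, Il17rb passed (limma adjusted p = 0.0306).

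Markers of other cell types are given for what the cut regions could hold. Of 15 endothelial markers 1 passed, Rspo3 as given above, and of 26 matrix genes 1, the protease gene Adam8, at −0.88 ± 0.17 (SE, limma adjusted p = 0.0411). Stellate cell and fibroblast markers (19), T, NK and B cell markers (16), neutrophil and mast cell markers (11) and erythroid markers (6) each had 0 members past the threshold in limma, with medians of 0.04, 0.08, −0.20 and −0.05. At an unadjusted p under 0.05 these lists had 6, 2, 1 and 0 members. The defining T cell marker Cd3e, at 3.28 ± 0.04 and 3.20 ± 0.09 in transplanted SHPCs and hepatocytes (mean ± SD, n = 3 each), was close to the arrays' 25th percentiles of 2.85 to 3.14. Leaving out any one of the 6 compared arrays or SHPC array 1 or 3 ended the call of Adam8 (limma adjusted p up to 0.209).

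The remaining members with the smallest p of lists with fewer than 2 calls did not pass in limma. Among regulators, Cdkn1b, the p27 inhibitor of the cell cycle, was at 0.46 ± 0.13, the fibroblast growth factor receptor gene Fgfr1 at −0.53 ± 0.16 and the growth hormone mediator gene Stat5b at 0.53 ± 0.21 (SE, limma adjusted p = 0.188, 0.208 and 0.396). The liver transcription factor genes Onecut1 and Foxa3 and the clock gene Npas2 were at −0.95 ± 0.26, 0.69 ± 0.17 and 0.84 ± 0.21 (SE, limma adjusted p = 0.172, 0.106 and 0.123). The apolipoprotein gene Apoa2 was at −0.94 ± 0.20, and the respiratory chain genes Atp5f1a and Cox6c at 0.64 ± 0.31 and 0.44 ± 0.21 (SE, limma adjusted p = 0.0595, 0.518 and 0.508). Of immune genes, the endotoxin coreceptor gene Cd14 was at 0.77 ± 0.23, the adhesion gene Icam1 at 0.80 ± 0.30, the killer cell gene Prf1 at 0.46 ± 0.14 and the antibody-joining gene Jchain at 0.78 ± 0.22 (SE, limma adjusted p = 0.220, 0.370, 0.232 and 0.192). The neutrophil genes Mpo and S100a9 were at −0.28 ± 0.15 and −0.57 ± 0.23, and the globin genes Hba-a1 and Hbb-b1, which have near-identical copies, at −0.40 ± 0.39 and −0.48 ± 0.22 (SE, limma adjusted p = 0.563, 0.436, 0.762 and 0.495). The matrix protease gene Mmp14, the endothelial gene Vwf and the contractile gene Tagln were at −0.54 ± 0.15, 0.46 ± 0.18 and 1.10 ± 0.28 (SE, limma adjusted p = 0.168, 0.418 and 0.119). Apoa2 and Cd14 passed without SHPC array 2 (limma adjusted p = 0.0224 and 0.0160).

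Markers of the donor cells did not pass. Thy1, on which they were sorted, was at 5.28, 5.30 and 5.21 on the transplanted and 5.19, 5.29 and 5.33 on the hepatocyte arrays, a change of −0.00 ± 0.11 (SE, limma adjusted p = 0.993) whose sign turned in several alternatives. Dpp4, whose enzyme the donors have and the recipients lack, was at 9.12, 9.11 and 9.15 against 8.96, 7.88 and 8.66 (0.63 ± 0.35, SE, limma adjusted p = 0.601). In livers without donor cells, of DPPIV status not stated here, its RNA was well above the array medians. How much of this RNA the recipients' own cells made cannot be told from these values, so no number of donor cells was read from its level. Of 13 markers of Thy1+ cells 0 passed in limma, 1 was higher at an unadjusted p under 0.05, and the median was −0.00.

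Some of the largest single rises were in no list. A1bg, a plasma glycoprotein of the immunoglobulin superfamily, was at 9.61, 10.51 and 10.41 on the transplanted and 6.06, 5.71 and 6.43 on the hepatocyte arrays. It rose 17.3-fold (4.11 ± 0.49, SE, limma adjusted p = 0.00585). Car3, a carbonic anhydrase abundant in liver and fat, was at 9.27, 9.74 and 9.33 against 6.03, 5.88 and 6.02, 11.1-fold higher (3.47 ± 0.58, SE, limma adjusted p = 0.0247), with SHPC arrays without transplantation spread from 5.54 to 8.41. Lgals2, a galectin, was at 6.88, 7.10 and 6.90 against 4.78, 4.01 and 4.81 (2.43 ± 0.38, SE, limma adjusted p = 0.0206). The call of A1bg held when any one of the 9 arrays was left out (limma adjusted p at most 0.0480). Without any one of the 6 compared arrays, the calls of Car3 and Lgals2 ended (limma adjusted p up to 0.119 and 0.109).

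**Figure D5:**
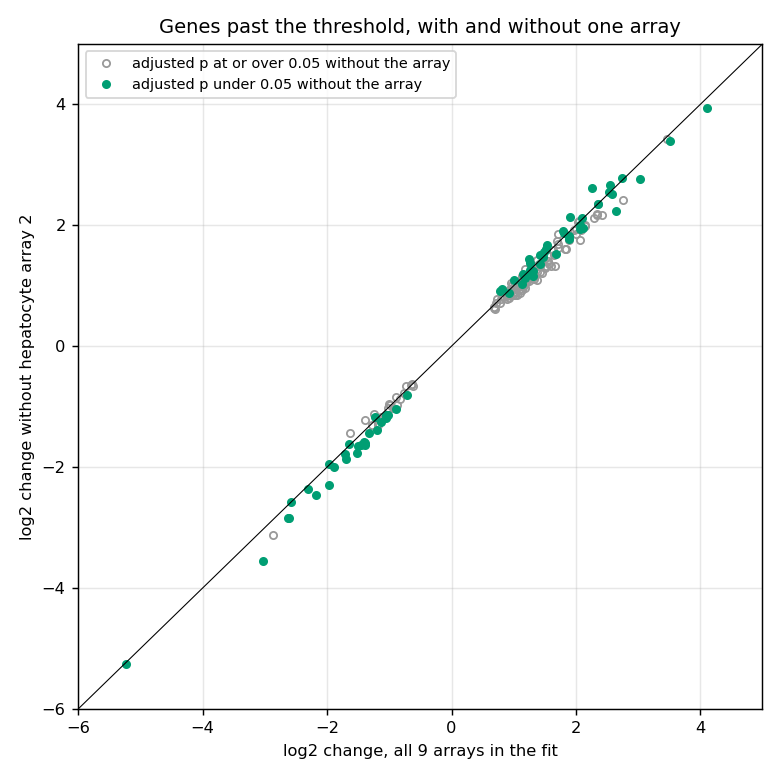
Each point is 1 of the 186 genes past the threshold, with its log2 change in the fit of all 9 arrays (horizontal) and without hepatocyte array 2 (vertical); the line marks equality. All 186 lie in the same direction on both axes, as genes without overlap between the groups must. The 67 filled points kept an adjusted p under 0.05 without that array.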

How the data were processed

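RNA from laser-cut liver regions was measured on 9 one-colour arrays, 3 per group. The deposited values are intensities on a linear scale, normalized by the authors with RMA, per the submitters' processing notes. Its version, its settings and the genome build are not given in the sources used here. Among the 36685 probe sets 18511 were paired with 1 gene symbol, 575 with several and 17599 with none, and only the first kind was used. Entrez numbers of 18394 were found in the current gene table, which changed 0 symbols. Where a gene had several probe sets, as 291 of the 18166 genes did, the one brightest on average across the series stood for it. Testing required that 3 or more of the 9 arrays lie above their own 25th percentile of all probe sets. That left 15793 genes and set 2373 dim ones aside.

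Log2 intensities were fitted in R 4.3.3 with limma 3.58.1 (lmFit and eBayes, 3 group means, 6 residual degrees of freedom), with Benjamini-Hochberg adjustment over all tested genes and a threshold of 0.05. Deposited values held 648 probe sets with equal values on the 3 transplanted and 319 on the 3 hepatocyte arrays. Of the tested genes 325 and 133 were among them, and 0 of these passed. On simulated data of 15793 genes with 200 changed, 68.7%, 97% and 100% of changes of 1, 2 and 3 log2 units were recovered, with 11 false calls. The simulated spread was drawn separately for each gene. Shifts shared by many genes of an array, as on hepatocyte and SHPC array 2, were left out, so these shares may not hold for the measured arrays.

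The members and lists were chosen with earlier results of these data known. Named were, by size of change, the first 12 genes to rise and the first 12 to fall, if past the threshold, free of overlap between arrays and with both means above the highest 25th percentile, and up to 4 passing members per list with the smallest p. In lists with fewer than 2 passing members the 2 with the smallest p were named, and Alb, Afp, Thy1, Dpp4, Il17rb, Cyp2b1, Ccnb1 and Cdkn1a always. Symbols starting with LOC, RGD or MGC were passed over. Genes beyond this rule were chosen after their values were seen. Promoter windows came from RefSeq, assembly GRCr8, matched by symbol. Alternatives changed the arrays in the fit, the replicate number as a block, the scaling between arrays, array weights, the filter, the probe set per gene, the variance model and an added offset of 16.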

Additional observations from a re-analysis of the deposited data

How the results depend on the processing

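The count of 186 genes (136 higher, 50 lower) moved with the arrays used and with the model of their spread. All 186 kept their direction wherever they were tested, which leaving out arrays could not change, because their groups did not overlap. Leaving out 1 array gave 31 to 472 genes, with 20 to 377 higher and 11 to 95 lower. Using only the 6 arrays compared gave 304 (241 higher). Leaving out hepatocyte and SHPC array 2 together gave 575 (405 higher, 170 lower). Renewed quantile normalization gave 328 (218 and 110), cyclic loess 440 (301 and 139), and array weights 2685 (1702 and 983). Testing all probe sets, named or not, gave 63 (39 and 24). The causes were not tested. Counts of 159 to 191 came from median centring, no filter, a filter at the medians, means of probe sets, trend with robust, and the added offset. Same-numbered transplanted and hepatocyte arrays did not deviate together: correlations of their deviations were −0.069, −0.080 and −0.090. No such correlation was computed with the SHPC arrays, although hepatocyte and SHPC array 2 both stood apart along the first principal component. Whether the numbers pair those arrays was not tested. A fixed replicate block gave 367 genes (291 and 76) and a random replicate block 305 (229 and 76), and with either block all 57 named genes past the threshold still passed. Over all settings 20 to 57 of these 57 still passed and 0 turned. Thy1, at −0.00 in the report, ran from −0.043 (without hepatocyte array 1) to 0.026 when 1 array was left out and turned to 0.021 without transplanted array 3, 0.0053 without hepatocyte array 2 (also with SHPC array 2 left out), 0.026 without hepatocyte array 3, and 0.027 after renewed quantile normalization or cyclic loess. Alb turned to −0.13 after cyclic loess. The number of arrays, 3 a group from an unknown number of animals, limits the precision. On simulated data without shifts shared across an array, 68.7% of changes of 1 log2 unit were recovered. Smaller changes were not simulated. In dim genes signal over background limits the fold.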

Other observations

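Of the 186 genes past the threshold 118 were in no list, and the ones given here were chosen after their values were seen, so no group of genes is read from them. Fam111a, a protease that helps replication past bound proteins, was at 5.35, 5.83 and 5.52 on the transplanted and 3.31, 3.54 and 3.58 on the hepatocyte arrays (2.09 ± 0.22, SE, limma adjusted p = 0.00346). The SHPC arrays without transplantation had a mean of 5.42. Kif18a, a kinesin that trims spindle fibres, was at 5.82, 5.82 and 5.92 against 4.26, 4.59 and 4.11 (1.53 ± 0.17, SE, limma adjusted p = 0.00400). Racgap1, which acts with Ect2 at the cleavage furrow, changed by 1.26 ± 0.15 (SE, limma adjusted p = 0.00585). Fancd2 and Fanci, partner proteins in the repair of crosslinked DNA strands, changed by 1.10 ± 0.18 and 1.08 ± 0.17 (SE, limma adjusted p = 0.0214 and 0.0216), with all transplanted arrays above all hepatocyte arrays in both. Mgmt, which removes alkyl groups from guanine in DNA, changed by −1.01 ± 0.18 (SE, limma adjusted p = 0.0281). Pex11a, a protein of peroxisome division, was at 5.61, 5.59 and 5.80 on the transplanted and 7.23, 7.40 and 7.34 on the hepatocyte arrays, 3.15-fold lower (−1.66 ± 0.17, SE, limma adjusted p = 0.00346). The peroxisomal thiolase gene Acaa1b, which has a close relative in Acaa1a, the carnitine acetyltransferase gene Crat and the peroxisomal protein gene Hsdl2 changed by −1.20 ± 0.19, −1.28 ± 0.24 and −1.46 ± 0.20 (SE, limma adjusted p = 0.0206, 0.0399 and 0.0112). The calls of Fam111a, Kif18a, Racgap1 and Pex11a held when any one of the 9 arrays was left out (limma adjusted p at most 0.0480). Leaving out transplanted array 1, 2 or 3 or hepatocyte array 1 or 2 ended the call of Fancd2 (limma adjusted p up to 0.121). Without any one of the 6 compared arrays, the calls of Fanci and Mgmt ended (limma adjusted p up to 0.123 and 0.159). Omission of transplanted array 1, 2 or 3 or hepatocyte array 1 or 3 ended the calls of Acaa1b and Hsdl2 (limma adjusted p up to 0.118 and 0.0702). When any one of the 6 compared arrays or SHPC array 1 was left out, the call of Crat ended (limma adjusted p up to 0.203).

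Aass and Dhtkd1, both of lysine breakdown, changed by 1.15 ± 0.21 and 1.15 ± 0.22 (SE, limma adjusted p = 0.0368 and 0.0368). Ddc, which decarboxylates aromatic amino acids, was at 7.90, 7.97 and 7.85 on the transplanted and 6.15, 6.02 and 6.42 on the hepatocyte arrays (1.71 ± 0.24, SE, limma adjusted p = 0.0132). Sec61a1, the channel through which new proteins enter the endoplasmic reticulum, and Ssr3, a protein beside that channel, changed by 1.33 ± 0.26 and 1.20 ± 0.22 (SE, limma adjusted p = 0.0473 and 0.0330). Hsd11b1, which turns inactive glucocorticoid into the active hormone, was at 8.89, 8.94 and 8.89 against 6.84, 7.47 and 7.26, 3.29-fold higher (1.72 ± 0.29, SE, limma adjusted p = 0.0264), and SHPC arrays without transplantation ran from 7.52 to 8.86. Slc6a6, the taurine transporter, was 4.22-fold higher (2.08 ± 0.33, SE, limma adjusted p = 0.0206), at 9.25, 9.54 and 8.83 against 6.98, 6.83 and 7.58. Leap2, a liver peptide that blocks the ghrelin receptor, was at 8.04, 7.74 and 7.65 against 5.78, 5.80 and 5.71, 4.13-fold higher (2.05 ± 0.31, SE, limma adjusted p = 0.0199). The call of Aass ended without any one of the 6 compared arrays or SHPC array 1 (limma adjusted p up to 0.196). Leaving out any one of the 6 compared arrays or SHPC array 3 ended the calls of Dhtkd1, Sec61a1 and Ssr3 (limma adjusted p up to 0.173, 0.221 and 0.155). Without transplanted array 1, 2 or 3 or hepatocyte array 1 or 2, the calls of Ddc and Slc6a6 ended (limma adjusted p up to 0.0788 and 0.111). Omission of any one of the 6 compared arrays ended the calls of Hsd11b1 and Leap2 (limma adjusted p up to 0.130 and 0.110).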
